A study of Mus musculus with 4 samples.

Results

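The genes described here build caveolae or mark how much vesicular transport an endothelial cell carries out. They are the caveolins *Cav1* and *Cav2*, the cavins *Cavin1*, *Cavin2* and *Cavin3*, the caveolar neck and scission genes *Ehd2*, *Pacsin2* and *Dnm2*, the lipid transporter gene *Mfsd2a* and the diaphragm gene *Plvap*. They were chosen by symbol, and all 10 of the 10 symbols were found among the 12693 gene symbols of the table. The study describes Smart-seq2 libraries of mouse cerebral cortex cells sorted for CD31, which endothelial cells (ECs) carry on their surface. The labels of the samples instead give brain as the tissue and a microgram amount of total RNA as the input, and name neither a sort nor Smart-seq2. Which description applies to these samples is not settled, so the values may be those of sorted ECs or of a wider mixture of cells. The mice were C57BL/6 embryos of embryonic day 18. The 4 samples were 2 of wild-type mice and 2 of *Foxq1* cKO mice, the latter of the genotype FOXQ1fl/fl;Tie2-Cre. Tie2-Cre deletes floxed alleles in ECs and is also active in blood cell lineages. In the study's mouse methods the controls are littermates without Cre, and whether the wild-type samples carried floxed alleles is not given. The number of embryos behind a sample is not given either, so the p-values measure the spread between these samples, which may be technical. The comparison asks how expression differs once *Foxq1*, a forkhead transcription factor gene of brain ECs, is lost.

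Caveolae are flask-shaped pits of the plasma membrane. Caveolins insert into the membrane and cavins coat the pit from the cytoplasm, while EHD2 stabilizes its neck, pacsin 2 bends the membrane there and dynamin 2 cuts vesicles free. ECs of most organs carry many caveolae, whereas brain ECs have few, and this low rate of transcytosis is a part of the blood-brain barrier (BBB). MFSD2A carries lysophospholipids into brain ECs, and its activity is known to restrain the formation of caveolar vesicles. PLVAP forms the diaphragms of caveolae and fenestrae and is lost from brain ECs as the barrier matures.

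The samples held between 15827166 and 21466436 reads on listed genes, and the deposited values were normalized read counts, that is reads divided by 1 size factor per sample. *Foxq1* itself was at 5.84% of its wild-type mean after deletion, with 419 and 298 reads in wild-type against 5 and 32 in *Foxq1* cKO samples. *Foxq1* shares 3200 bp of exon with a gene on the opposite strand, and whether strand was used in counting is not given in the sources used here. The 9 EC marker genes examined were all listed, with summed values of 310677 and 343540 in wild-type against 270554 and 303929 in *Foxq1* cKO samples, so the sums did not overlap. *Cldn5* and *Slc2a1* had the largest values in these sums. Of the 9 markers, 5 were lower and 1, *Cdh5*, was higher in both *Foxq1* cKO samples, and 3 had overlapping groups. Among all genes tested, 18% were lower and 18% higher in this way. The mean log2 value of the 9 markers differed by -0.16 between *Foxq1* cKO and wild-type samples. Mural cell transcripts were abundant too. The 5 of 8 mural markers that could be analysed summed to between 125540 and 136251, with overlapping groups and *Rgs5* alone between 89164 and 93044, while *Acta2*, *Tagln* and *Myh11* were not analysed here. The 6 microglia and macrophage markers summed to 6394 and 7734 in wild-type and to 4607 and 5173 in *Foxq1* cKO samples, and 5 of 6 neural progenitor and astroglial markers to 14486 and 15386 against 12943 and 13073. Single markers differed within both lists. Of the microglia and macrophage markers, 2 were lower in both *Foxq1* cKO samples and 4 had overlapping groups. Of the neural progenitor and astroglial markers, 3 were lower and 2 overlapped. Erythroid markers (5 of 5), neuronal markers (5 of 6), fibroblast markers (3 of 5) and the choroid plexus marker *Ttr* (1 of 3) had overlapping sums. Mural cells and fibroblasts also carry caveolae, and the part of these markers in the results was not tested. In bulk RNA, fewer cells of a type and less RNA per cell cannot be told apart.

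For *Cav1*, *Cavin1*, *Cavin3*, *Ehd2*, *Mfsd2a* and *Plvap* each *Foxq1* cKO value lay below each wild-type value, while for *Cav2* and *Dnm2* each lay above. *Cavin2* and *Pacsin2* had overlapping groups. Among the 12472 genes tested, 36% had groups that did not overlap, 18% lower and 18% higher in *Foxq1* cKO, and 36.8% of the 7807 genes at least as high as *Plvap*. In limma, a linear model with a variance shared across genes, 5 of the 10 genes had an unadjusted p under 0.05 (*Cav1*, *Cavin1*, *Ehd2* and *Mfsd2a* lower, *Cav2* higher), against 5.22% of all genes tested and 5.74% of those at least as high as *Plvap*. The count was also 5 in DESeq2 and in edgeR's quasi-likelihood test on reads recovered from the values, against 6.45% and 4.92% of all genes. No gene of the table had an adjusted p under 0.05 in limma with Benjamini-Hochberg adjustment (0%), so none of the 10 differences passed the test. The deleted gene *Foxq1* did not pass in limma either (unadjusted p = 0.00507, adjusted p = 0.857), while its adjusted p was 0.00925 in DESeq2. The median log2 fold change of the 10 genes was -0.32, and that of all genes tested was 0.0086. For 1 gene in 2 against 2 samples, the smallest p of an exact two-sided permutation test is 0.333.

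**Figure D1:**
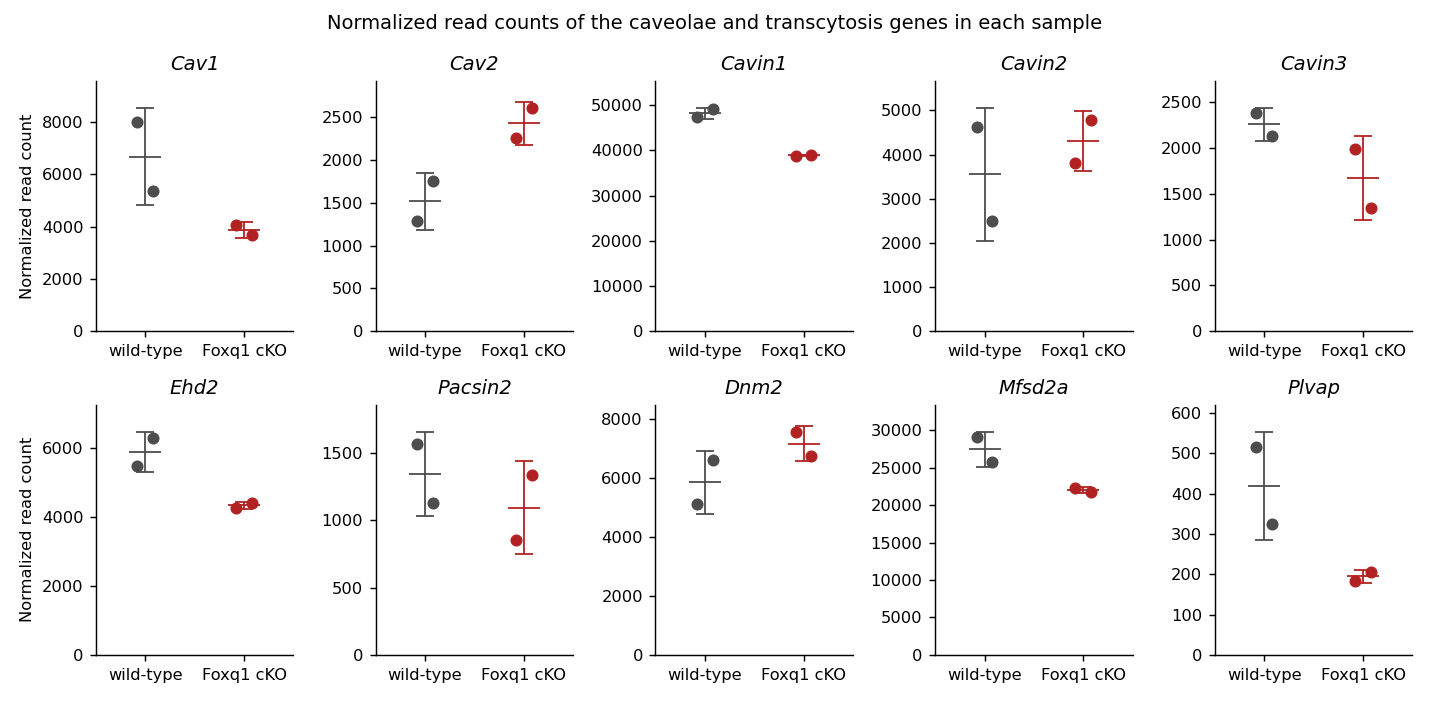
Normalized read count (y axes, from 0, a scale of its own in each panel) of the 10 genes in the 2 wild-type samples (grey) and the 2 *Foxq1* cKO samples (red). Points are samples, horizontal marks are group means and bars are 1 SD. The *Cav1* points of *Foxq1* cKO lie below both wild-type points, and those of *Cav2* lie above both.

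*Cav1* encodes caveolin 1, without which ECs form no caveolae. Its normalized read counts were 7999.9 and 5365 in wild-type against 4077 and 3668 in *Foxq1* cKO samples. Both *Foxq1* cKO values lay below the lower wild-type value, and the wild-type pair was 1.49-fold apart. The *Foxq1* cKO mean was 58.0% of the wild-type mean, with a log2 fold change of -0.76 (SE 0.228, 95% interval -1.32 to -0.21, unadjusted p = 0.0153, adjusted p = 0.857 in limma). On the recovered reads its adjusted p was 0.151 in DESeq2 (unadjusted 0.00124) and 0.940 in edgeR (unadjusted 0.0141).

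*Cav2* encodes caveolin 2, which assembles with caveolin 1 and does not form endothelial caveolae alone. It went the other way, with 1282 and 1751 normalized read counts in wild-type against 2252 and 2608 in *Foxq1* cKO samples. The groups did not overlap, and the *Foxq1* cKO mean was 160% of the wild-type mean. Its log2 fold change of 0.69 (SE 0.253, 95% interval 0.076 to 1.31) did not pass in limma (unadjusted p = 0.0333, adjusted p = 0.857).

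*Cavin1* encodes the coat protein that all caveolae require. It was measured most precisely of the 10 genes, with 47354 and 49069 normalized read counts in wild-type against 38859 and 39022 in *Foxq1* cKO samples. The samples within each group lay close together and the groups were 8332 normalized read counts apart at their nearest. The *Foxq1* cKO mean was 80.8% of the wild-type mean (log2 fold change -0.31, SE 0.0900, unadjusted p = 0.0138, adjusted p = 0.857 in limma).

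*Cavin2*, whose product helps to curve the caveolar membrane, had 4618 and 2486 normalized read counts in wild-type against 3818 and 4783 in *Foxq1* cKO samples. The wild-type samples differed by 1.86-fold and enclosed 1 of the *Foxq1* cKO values, so no direction can be given (log2 fold change 0.33, SE 0.318, unadjusted p = 0.333 in limma). Without wild-type sample 2 the log2 fold change turned to -0.11, and without wild-type sample 1 it was 0.78, with an unadjusted p of 0.0180.

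*Cavin3*, whose product links caveolae to signaling and trafficking, had 2387 and 2134 normalized read counts in wild-type against 1994 and 1345 in *Foxq1* cKO samples. The groups did not overlap, although their nearest values were only 140 normalized read counts apart and the *Foxq1* cKO samples differed by 1.48-fold (log2 fold change -0.46, SE 0.269, unadjusted p = 0.135 in limma). The exons of *Cavin3* share 374 bp with *Gm45667* on the opposite strand, so some of its reads are uncertain.

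*Ehd2*, the ATPase of the caveolar neck, had 5452 and 6289 normalized read counts in wild-type against 4256 and 4399.75 in *Foxq1* cKO samples. The groups did not overlap, and the *Foxq1* cKO mean was 73.7% of the wild-type mean. Its log2 fold change was -0.44 (SE 0.162, 95% interval -0.83 to -0.041), and did not pass in limma (unadjusted p = 0.0354, adjusted p = 0.857).

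*Pacsin2* had 1568 and 1127 normalized read counts in wild-type against 851 and 1338 in *Foxq1* cKO samples, with overlapping groups and a log2 fold change of -0.32 (SE 0.343, unadjusted p = 0.391 in limma). *Dnm2*, which also serves clathrin-coated vesicles, had 5097 and 6598 normalized read counts in wild-type against 7567 and 6728 in *Foxq1* cKO samples. Both *Foxq1* cKO values were higher, but by 131 normalized read counts at the nearest, less than the spread within either group (log2 fold change 0.30, SE 0.182, unadjusted p = 0.151 in limma). *Dnm2* exons share 207 bp with *Tmed1* on the opposite strand.

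*Mfsd2a* had 29142 and 25765 normalized read counts in wild-type against 22363 and 21721 in *Foxq1* cKO samples. The groups did not overlap and were 3402 normalized read counts apart at their nearest. The *Foxq1* cKO mean was 80.3% of the wild-type mean (log2 fold change -0.31, SE 0.113, 95% interval -0.59 to -0.039, unadjusted p = 0.0312, adjusted p = 0.857 in limma). It was counted from between 20542 and 34585 reads a sample, the most after *Cavin1*.

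*Plvap* had the lowest counts of the 10 genes, with 611 and 325 reads in wild-type against 168 and 203 reads in *Foxq1* cKO samples. Its normalized read counts were 515 and 324 against 183 and 207, and both *Foxq1* cKO values lay below the lower wild-type value. The *Foxq1* cKO mean was 46.4% of the wild-type mean, the lowest share of the 10. The error was large too, with a log2 fold change of -1.07 (SE 0.531, 95% interval -2.36 to 0.23) and an unadjusted p of 0.0906 in limma. The SE of *Plvap* was thus several times that of *Cavin1*, which had far more reads, and the wild-type samples differed by 1.59-fold.

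**Figure D2:**
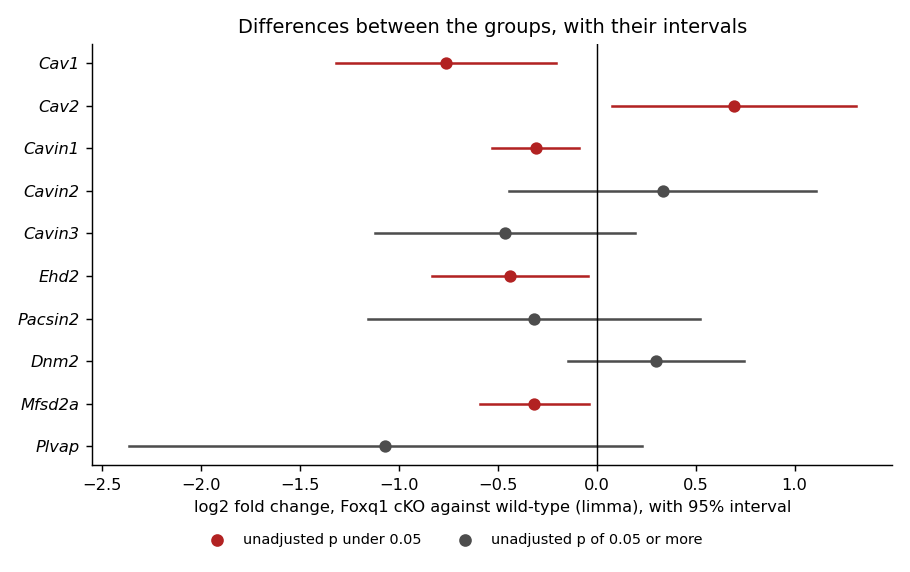
Log2 fold change of *Foxq1* cKO against wild-type (x axis) of the 10 genes from limma (points), with its 95% interval (lines), in red where the unadjusted p was under 0.05. The intervals of *Cav1*, *Cavin1*, *Ehd2* and *Mfsd2a* lie below 0, that of *Cav2* lies above 0, and those of the other 5 genes include 0.

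Levels of different genes were compared as normalized read counts per kb of exon. *Cavin1* was highest in the wild-type samples at 13441 ± 338 per kb (SD, n = 2), followed by *Mfsd2a* at 12202 ± 1061 per kb (SD, n = 2). These genes made up 40.4% and 36.7% of the summed level per kb of the 10 genes in wild-type, against 39.6% and 35.7% in *Foxq1* cKO. *Cav1* came next at 1940 ± 541 per kb (SD, n = 2). *Cavin3*, *Cavin2*, *Ehd2* and *Dnm2* lay between 1097 and 1360 per kb, and in that order each overlapped with the next, so their order is not resolved. *Cav2*, at 455 ± 99.3 per kb (SD, n = 2), was well below them. *Pacsin2* at 275 ± 63.6 and *Plvap* at 211 ± 67.9 per kb (SD, n = 2) were lowest and overlapped each other. The highest level was 78.6 times the lowest over the 4 samples. In the *Foxq1* cKO samples *Cav1* was at rank 5 rather than rank 3, below *Cavin2* at 1408 ± 223 and *Dnm2* at 1341 ± 111 per kb (SD, n = 2). *Cavin1* held between 81.6% and 86.7% of the level per kb of the 3 cavins in each sample, with overlapping groups.

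A ratio of 2 genes within a sample does not depend on how samples were scaled to each other. The largest difference among the 4 ratios computed was that of *Cav1* to *Cav2*. For each *Cav2* count the wild-type samples had 6.23 and 3.06 *Cav1* counts, against 1.81 and 1.41 after deletion. The groups did not overlap, and on the log2 scale the ratio was lower by 1.45 in *Foxq1* cKO (2.13 ± 0.72 in wild-type against 0.67 ± 0.26, SD, n = 2), a 2.74-fold difference. With 1 sample left out, the difference lay between -1.97 and -0.94 on the log2 scale, the latter without wild-type sample 1. Per kb of exon, *Cav1* held 85.8% and 74.8% of the level of the 2 caveolins in wild-type against 63.7% and 57.7% in *Foxq1* cKO samples. The ratio of *Cav1* to *Cavin1* was 0.169 and 0.109 in wild-type against 0.105 and 0.0940 in *Foxq1* cKO, so that wild-type sample 2 lay close to the *Foxq1* cKO samples, and without wild-type sample 1 the difference shrank from -0.45 to -0.14 on the log2 scale. *Cav1* to *Mfsd2a* was 0.275 and 0.208 against 0.182 and 0.169 (log2 difference -0.45, and -0.25 without wild-type sample 1). *Plvap* to *Mfsd2a* was 0.0177 and 0.0126 against 0.00822 and 0.00955 (log2 difference -0.75). Each of these 4 ratios was lower in both *Foxq1* cKO samples, and each gave an exact two-sided permutation p of 0.333, the smallest this design allows. The ratios share *Cav1* or *Mfsd2a*, so they are not separate observations. Since *Cav1* was lower and *Cav2* higher in both *Foxq1* cKO samples, the direction and p of their ratio were already fixed by those values. No share over all pairs of genes is given beside this count.

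**Figure D3:**
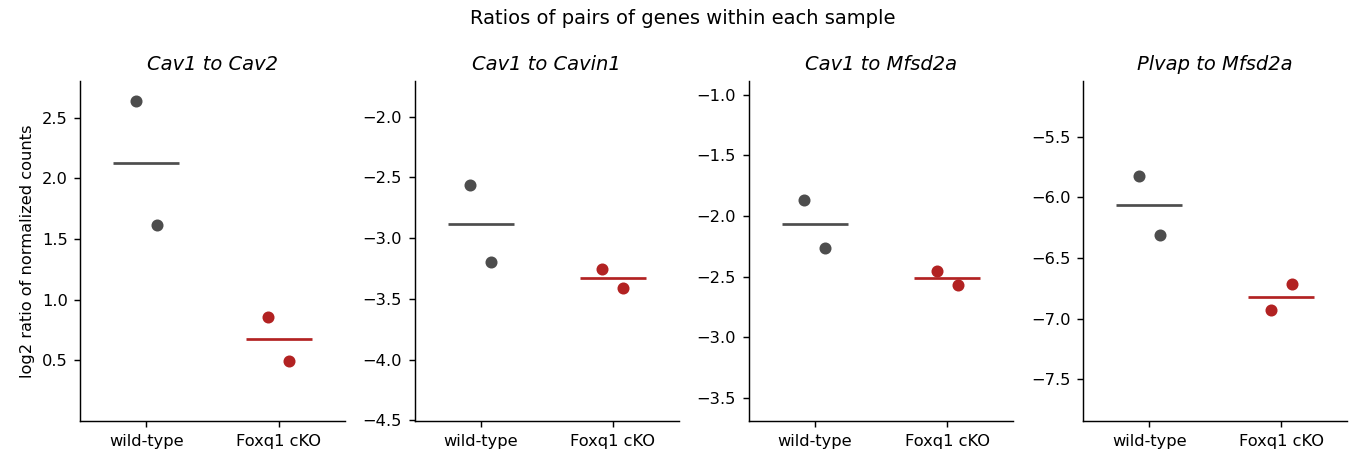
Log2 ratio of the normalized read counts of 2 genes within each sample (y axes, each 2.8 log2 units high), for wild-type (grey) and *Foxq1* cKO (red), with lines at the group means. The ratio of *Cav1* to *Cav2* shows the widest gap, with wild-type samples at 2.64 and 1.62 and *Foxq1* cKO samples at 0.86 and 0.49.

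Set against the EC markers of the same sample, *Cav1* stayed lower and *Cav2* higher, while *Cavin1* was less separated. The log2 ratio of *Cavin1* to the mean of the EC markers was 1.28 and 1.52 in wild-type against 1.32 and 1.18 in *Foxq1* cKO samples, and these overlapped. When the samples were scaled to the EC markers, which moved the median of all genes by 0.16, the log2 fold change was -0.60 for *Cav1* (unadjusted p = 0.0335), 0.85 for *Cav2* (unadjusted p = 0.0245), -0.15 for *Cavin1* (0.332), -0.28 for *Ehd2* (0.231) and -0.15 for *Mfsd2a* (0.306) in limma. On this scale 2 of the 10 genes had an unadjusted p under 0.05, against 4.96% of all genes.

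*Cav2* and *Cav1* are neighbors on the plus strand of chromosome 6 in GRCm38, at 17281185 to 17289115 and at 17306335 to 17341452, with 17219 bp between them. Both are thus transcribed in the same direction from separate starts, and no annotated exon of another gene overlaps theirs. Within 500 kb on either side, 4 other genes were tested, and 0 of them had an unadjusted p under 0.05 in limma. *Tes* had 1443 and 1238 normalized read counts in wild-type against 1396 and 1287 in *Foxq1* cKO samples. Both *Foxq1* cKO values of *Capza2* (8067 and 7666) lay below both wild-type values, of which the lower was 8184 (log2 fold change -0.16, SE 0.145, unadjusted p = 0.303 in limma). *Gm4876*, whose locus spans that of *Tes* on the opposite strand, had 3.37 and 28.9 against 72.9 and 59.0 (log2 fold change 2.54, SE 1.23), and *St7* between 109 and 266 with overlapping groups. This locus was examined after the values of *Cav1* and *Cav2* were known. The other 8 genes are not neighbors of each other. In the same annotation the cavin genes are *Cavin1* on chromosome 11 from 100956733 to 100970887 (minus strand), *Cavin2* on chromosome 1 from 51289126 to 51302960 (plus strand) and *Cavin3* on chromosome 7 from 105480083 to 105482300 (minus strand). The neck and scission genes are *Ehd2* on chromosome 7 from 15946958 to 15967567 (minus strand), *Pacsin2* on chromosome 15 from 83375607 to 83464606 (minus strand) and *Dnm2* on chromosome 9 from 21424908 to 21507759 (plus strand). *Mfsd2a* is on chromosome 4 from 122946850 to 122961188 (minus strand), and *Plvap* is on chromosome 8 from 71497765 to 71511752 (minus strand). These positions are those of the annotation, whereas the submitters' notes name mm9 for the reads.

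RefSeq promoter sequences of GRCm38.p6, from 250 bases before to 50 bases after each annotated start, were found for 8 of the 10 genes, in 12 promoters, and not for *Cavin3* and *Plvap*. They were searched on both strands for GTTTC, the motif that the study associates with FOXQ1, and for the forkhead motif TGTTTAC. The shorter motif, GTTTC, was present in 4 of the 12 promoters and in 45% of all 32851 promoters. These 4 promoters belonged to 3 of the 8 genes, *Mfsd2a*, *Cavin1* and *Cavin2*. TGTTTAC was present in 0 of the 12 promoters and in 3.65% of all. The *Cav1*, *Cav2* and *Ehd2* promoters held neither. The starts are those of RefSeq, and that of *Cavin1* lies inside the span given for *Cavin1* above rather than at its end. The windows with GTTTC are shown because they place the motif relative to the starts of genes measured here. The motif is in capitals and each sequence is written along the coding strand of its gene:
Mfsd2a, motif ending 184 bases before the start (chr4:122961359-122961388, minus strand): cctgggacttcaGTTTCctcgggcgagtca
Mfsd2a, motif ending 161 bases before the start (chr4:122961336-122961365, minus strand): cgagtcaggtggGTTTCtcagctttgctta
Cavin2, motif ending 100 bases before the start (chr1:51289010-51289039, plus strand): ccaagttaacatGTTTCtctccgcctctaa
Cavin1, motif beginning at base 43 counted from the start (chr11:100970568-100970597, minus strand): ggtgcgcacggacgtggctcgaGTTTCctc
A match of 5 letters is frequent and is given as a description of these windows only.

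Genes of related uptake routes were examined in 4 lists, of which 51 of 59 genes could be tested. None passed adjustment in limma. At an unadjusted p under 0.05, 4 of the 51 were lower and 0 were higher, against 3.05% and 2.17% of all genes, and their median log2 fold change was -0.04. All 4 were among the clathrin and receptor lists. *Cltc*, the clathrin heavy chain gene, had 9328 and 10813 normalized read counts in wild-type against 7315 and 8149 in *Foxq1* cKO samples (log2 fold change -0.38, SE 0.149, unadjusted p = 0.0428). It was 1 of 22 genes of the clathrin coat and its adaptors with such a p, and the median of that list was 0.01. Of these 22 genes, 8 were lower and 2 higher in both *Foxq1* cKO samples, and 12 had overlapping groups. Among all genes tested, 18% were lower and 18% higher in this way. *Cltb*, a clathrin light chain gene, was lower in both *Foxq1* cKO samples without passing (log2 fold change -0.55, SE 0.266). *Snx9*, which bends membranes at clathrin pits, was higher in both from a wild-type pair that differed widely, at 95.2 and 349 normalized read counts.

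Of 12 receptors of endothelial uptake and transcytosis, 3 were lower at an unadjusted p under 0.05 in limma and 9 did not pass. The insulin-like growth factor receptor gene *Igf1r* had 7704 and 7739 normalized read counts in wild-type against 5979.97 and 4705 in *Foxq1* cKO samples (log2 fold change -0.54, SE 0.171, unadjusted p = 0.0192). The insulin receptor gene *Insr* had 8302 and 6836 against 5406 and 5809 (log2 fold change -0.43, SE 0.163, unadjusted p = 0.0395). *Scarb1*, which encodes a lipoprotein receptor, had 10508 and 9827 against 7832 and 8141 (log2 fold change -0.35, SE 0.131, unadjusted p = 0.0374). The transferrin receptor gene *Tfrc*, whose protein carries iron across brain ECs, had overlapping groups and a log2 fold change of 0.0057 (SE 0.147). *Lrp10*, a member of the LDL receptor family, was higher in both *Foxq1* cKO samples (log2 fold change 0.43, SE 0.246).

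None of 7 caveolar paralogs and flotillins had an unadjusted p under 0.05 in limma. Of them 2 were lower and 1 was higher in both *Foxq1* cKO samples, and 4 had overlapping groups. The larger of the 2 lower differences was that of *Dnm3* (log2 fold change -0.59, SE 0.410), and the higher gene was *Ehd3* (0.40, SE 0.236). *Cav3*, *Cavin4*, *Pacsin1* and *Dnm1* were not analysed here. Among 10 genes whose products bind caveolin 1 or signal from caveolae, 9 had overlapping groups, *Nos3* (0.12, SE 0.178) and *Kdr* (-0.02, SE 0.0997) included. Of all genes tested, 36% had groups that did not overlap. The remaining gene, *Tgfbr1*, had 392 and 895 normalized read counts in wild-type against 1116 and 1015 in *Foxq1* cKO samples (0.84, SE 0.458).

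**Figure D4:**
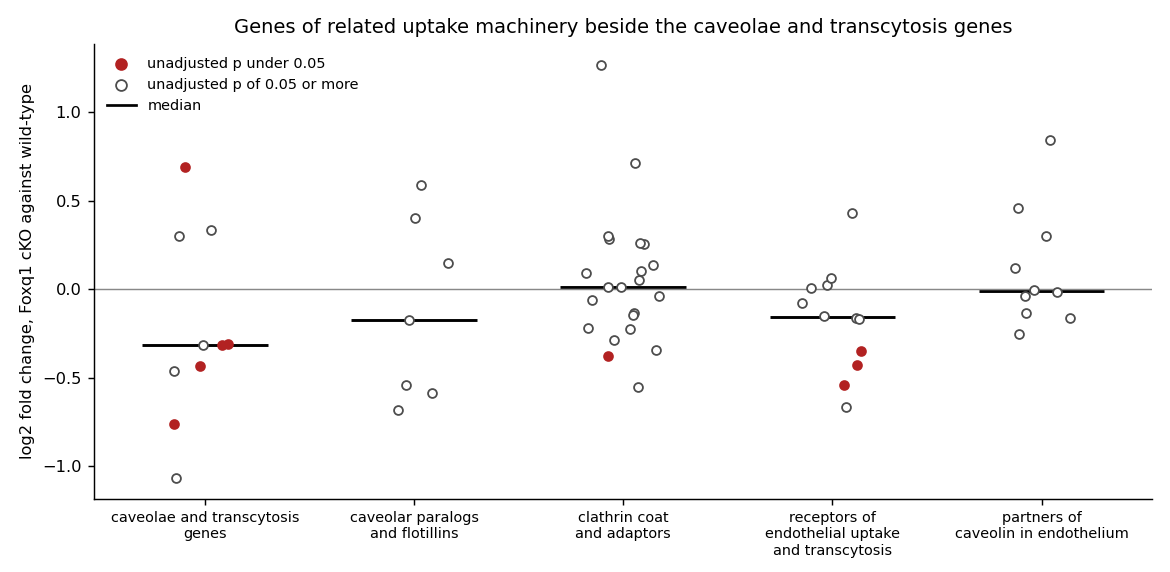
Log2 fold change of *Foxq1* cKO against wild-type (y axis, limma) for the 10 caveolae and transcytosis genes and for the 4 related lists. Points are genes, in red where the unadjusted p was under 0.05, and bars are medians, at -0.32 for the 10 genes and between -0.17 and 0.01 for the other lists.

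The unadjusted p-values rest on how limma pools the variance. Without a trend of the variance with expression, 1 of the 10 genes had an unadjusted p under 0.05, *Plvap* (0.0472), against 5.41% of all genes, and the 5 others named above lay between 0.0969 and 0.325. The log2 fold change of each of the 10 genes kept its sign in each of the 11 alternative settings that used the 4 samples. Settings that changed only the filter, the variance trend or the block leave this fold change as it is, so they could not alter its sign. With 1 sample left out, *Cav1* lay between -1.05 and -0.47, *Cav2* between 0.47 and 0.92, *Plvap* between -1.40 and -0.73 and *Mfsd2a* between -0.40 and -0.23 on the log2 scale.

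**Figure D5:**
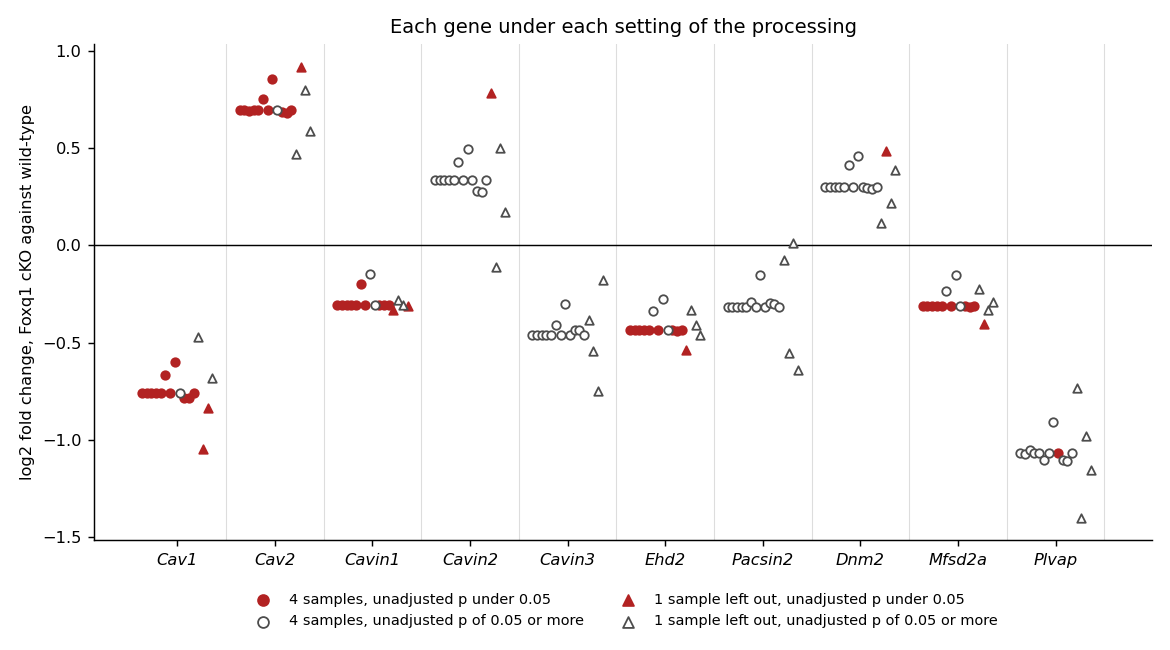
Log2 fold change of *Foxq1* cKO against wild-type (y axis) of each gene under each setting of the processing, with all 4 samples (circles) and with 1 sample left out (triangles), filled in red where the unadjusted p was under 0.05. *Cavin2* and *Pacsin2* cross 0 when a sample is left out, and the other 8 genes do not. The groups of these 8 do not overlap, so leaving out a sample could not change their direction.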

How the data were processed

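The authors deposited 1 table of a normalized signal per gene for 2 wild-type and 2 *Foxq1* cKO samples. Per the submitters' processing notes, reads were processed with TopHat2 2.0.12, Bowtie2 2.2.3 and HTSeq 0.6.0 on mm9. The strand setting and the normalization tool are not given in the sources used here. Repeated lines (1207361 in all) were collapsed to 12693 symbols. Within 0.01 of a read, 100% of the values were whole reads divided by 1 size factor per sample, and these factors matched those of the median of ratios. A listed gene had at least 1 read in each sample. Counting intervals would cover counting error only and are not given.

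limma 3.58.1 (R 4.3.3, eBayes with a trend) was fitted to log2(value + 1) for the 12472 genes averaging at least 10 over the samples, which understates changes of low genes. edgeR 4.0.16 and DESeq2 1.42.0 were run on recovered reads. The limma, edgeR and DESeq2 fits were tested on simulated data. Exon lengths and positions came from GENCODE M21 (GRCm38). Groups came from the labels. The genes, lists and tests were chosen with earlier results of these data known. Named beyond the 10 genes were list genes with an unadjusted p under 0.05 and, per list, the largest non-overlapping difference each way. *Tfrc*, *Nos3*, *Kdr* and the neighbors of *Cav1* were added after their values were seen. The correlation of deviations between same-numbered samples was 0.032, and shared numbers were not taken as pairs.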

Additional observations from a re-analysis of the deposited data

How the results depend on the processing

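Each fit has at most 2 samples a group, and *Plvap* had the fewest reads of the 10 genes. The count of 5 caveolae and transcytosis genes with an unadjusted p under 0.05 became 3 with quantile normalization, 2 when scaled to EC markers and 1 without a variance trend, and 1 to 4 with a sample left out (3 without wild-type sample 1, and 1 without either *Foxq1* cKO sample). The median of these genes was -0.15 when scaled to EC markers, and -0.37 to -0.28 with a sample left out. For the 4 related lists the count of 4 became 1, 0 and 0 in the same 3 settings and 0 to 10 with a sample left out (10 without wild-type sample 2, 0 without *Foxq1* cKO sample 2), and their median became 0.064 with quantile normalization and 0.12 when scaled to EC markers, and -0.080 to -0.026 with a sample left out. Over all genes, 651 had an unadjusted p under 0.05 in limma, and 276 (without *Foxq1* cKO sample 1) to 1569 (without wild-type sample 2) with a sample left out. DESeq2 gave 59 genes with an adjusted p under 0.05 where limma and edgeR gave 0, and none of the 59 was among the 10 genes. With a sample left out, *Cavin2* lay between -0.11 (without wild-type sample 2) and 0.78 and *Pacsin2* between -0.64 and 0.0093 (without *Foxq1* cKO sample 1), so both reversed. A fit with a sample left out assumes that the lone sample varies like the other group. With the replicate number as a block, 693 of all genes, 5 of the 10 and 4 of the list genes had an unadjusted p under 0.05, and no call of these changed. The causes of these changes were not tested. The 4 ratios between caveolae and transcytosis genes kept their direction under both other pseudocounts and with each sample left out. Since the groups of these ratios did not overlap, leaving out a sample could not have changed their direction. Of the ratios to EC markers, those of *Cavin3* and *Pacsin2*, whose groups overlapped, changed sign, from -0.30 to 0.057 without *Foxq1* cKO sample 2 and from -0.16 to 0.097 without *Foxq1* cKO sample 1.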
